A study of Mus musculus with 12 samples.

Results

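Plasma cell identity genes are a small set of transcripts by which antibody-secreting cells, and myeloma cells derived from them, are usually recognised. Of the 7 genes listed for this set by name, 5 have a row among the 23134 genes of the deposited table: Sdc1, Tnfrsf17, Jchain, Irf4 and Pou2af1. Xbp1 and Mzb1 are not analysed here. Rows were matched by gene symbol alone, but the set was chosen with earlier results of these data known.

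The samples were total bone marrow of C57BL/6 mice that carried Vk12653 cells, a myeloma line that can be passed between mice and comes from the Vk*MYC model. All 12 samples came from mice injected intravenously with these cells. The untreated group had 3 samples collected 10 days after injection and labelled as day 0 of treatment. The other groups received 10 µg of clone 3H3, an agonist antibody to the costimulatory receptor CD137, by repeated intraperitoneal injection, and were collected at treatment days 4, 11 and 18 with 3 samples each. Those days correspond to days 14, 21 and 28 after the myeloma cells. No untreated marrow of the later days was used here, so antibody exposure and time since injection cannot be told apart. Whether each sample is 1 mouse is not given in the labels, so p-values measure only the spread between these samples, which may be technical. The normalised totals lay between 19.16 and 20.84 M per sample (M, 1e+06), and the reads behind them were estimated at 16 to 25.2 M, with the day 4 libraries lowest as a group at 16 to 17.8 M.

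When a B cell becomes a plasma cell, Irf4 and Prdm1 encode factors that switch off the B cell programme, while Xbp1 widens the secretory machinery and the cell comes to display syndecan-1 and BCMA. Pou2af1 encodes a coactivator that works with octamer-binding factors in B cells and plasma cells, and Jchain encodes the peptide that joins subunits of polymeric IgM and IgA. Several of these genes are not restricted to plasma cells: Irf4 and Pou2af1 are active earlier in the B lineage, Irf4 also in activated T cells and dendritic cells, and syndecan-1 is found on mouse B cell precursors.

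The sequence just before the start of each tested member is shown because the members include a coactivator of octamer sites. The samples of these 4 genes at day 11 also all lay below those at day 4. That held for 8.16% of all genes, and 0 of the 4 were called by limma in that comparison. The sequences are those of RefSeq on GRCm38.p6, written 5′ to 3′ on the gene's own strand, and run up to 250 bases before the RefSeq start, without the bases that GENCODE M21 already places inside the gene. Capitals mark matches to any of 5 motifs searched on both strands, as described after them.
Sdc1, chr12:8771146-8771322, plus strand: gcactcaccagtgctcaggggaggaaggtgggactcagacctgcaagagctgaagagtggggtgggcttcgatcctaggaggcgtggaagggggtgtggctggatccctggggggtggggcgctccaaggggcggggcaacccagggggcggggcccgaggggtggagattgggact
Jchain, chr5:88527898-88528147, minus strand: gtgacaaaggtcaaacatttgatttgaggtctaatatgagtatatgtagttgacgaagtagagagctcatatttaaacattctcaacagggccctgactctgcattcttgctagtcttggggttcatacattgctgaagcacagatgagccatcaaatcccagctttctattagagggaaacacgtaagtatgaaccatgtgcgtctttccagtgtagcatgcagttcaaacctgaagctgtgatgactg
Irf4, chr13:30748983-30749225, plus strand: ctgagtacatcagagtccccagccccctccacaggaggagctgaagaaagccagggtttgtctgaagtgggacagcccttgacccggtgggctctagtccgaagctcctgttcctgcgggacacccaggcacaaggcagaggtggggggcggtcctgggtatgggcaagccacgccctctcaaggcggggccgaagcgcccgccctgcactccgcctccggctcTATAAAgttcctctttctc
Pou2af1, chr9:51213440-51213689, plus strand: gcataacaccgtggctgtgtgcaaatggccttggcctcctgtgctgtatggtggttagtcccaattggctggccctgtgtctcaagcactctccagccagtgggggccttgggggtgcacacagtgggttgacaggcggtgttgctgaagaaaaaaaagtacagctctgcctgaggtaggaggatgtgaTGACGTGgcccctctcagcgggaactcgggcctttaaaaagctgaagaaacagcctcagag

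The motifs searched were the octamer ATGCAAAT, the interferon regulatory factor repeat (GAAA, any 2 bases, GAAA), the composite site of ETS and IRF factors (GGAA, any 2 bases, GAAA), the core TGACGTG of an unfolded protein response element, and the TATA box TATAAA. Irf4 held TATAAA from 26 bases before its start, a motif present in 12.4% of 32851 RefSeq promoter windows of 250 bases. Pou2af1 held TGACGTG from 61 bases before its start, against 1.65% of those windows. The windows of Sdc1 and Jchain held none of the 5. Every window was searched over 250 bases before the RefSeq start. Only the printed sequences of Sdc1 and Irf4 were shortened, to 177 and 243 bases. The octamer, the interferon regulatory factor repeat and the composite site, present in 1.6%, 2.98% and 2.3% of promoters, did not occur in these 4 windows. The window of Tnfrsf17, which was searched in the same way and is not printed, held the interferon regulatory factor repeat on the minus strand from 101 bases and TATAAA from 114 bases before its start. A match describes letters only, and the absence of a match says nothing about the factors.

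Sdc1 encodes syndecan-1, the heparan sulphate proteoglycan known as CD138 that is the standard surface marker of plasma cells. Its identifier is ENSMUSG00000020592.14, and GRCm38 places it at 8771323 to 8793715 of chromosome 12, plus strand. Its normalised counts were 675, 398 and 432 in untreated marrow, 357, 360 and 351 at day 4, 251, 310 and 237 at day 11, and 299, 282 and 231 at day 18. Every treated sample lay below every untreated one, and the first untreated replicate stood well above the other two. The mean went from 502 ± 151 (SD, n = 3) before treatment to 266 ± 38.7 at day 11 and 271 ± 35.4 at day 18. Sdc1 fell at day 11, with a log2 change of -0.88 ± 0.17 (SE of the model, limma with Benjamini-Hochberg adjustment over all genes tested, adjusted p = 0.00786), which is a fitted ratio of 0.543. It also fell at day 18, by a log2 change of -0.86 ± 0.17 (limma, adjusted p = 0.00648). At day 4 the mean was 356 ± 4.58 and the log2 change of -0.45 ± 0.17 did not pass (limma, adjusted p = 0.15).

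The order of Sdc1 levels was untreated, day 4, day 18 and day 11, from high to low. No neighbours in this order differed past the threshold, and the log2 change of day 18 against day 11 was 0.03 with a 95% interval from -0.34 to 0.39. Without the high untreated replicate 1, Sdc1 changed by -0.65 ± 0.14 at day 11 (log2, limma, adjusted p = 0.0186) and by -0.62 ± 0.14 at day 18 (adjusted p = 0.0139). Both falls stayed past the threshold under all 22 alternatives run, with adjusted p from 0.00086 to 0.0414 at day 11 and from 0.00415 to 0.0358 at day 18.

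Tnfrsf17 encodes BCMA, a receptor for the survival factors APRIL and BAFF made mainly by late B lineage cells. The gene (ENSMUSG00000022496.5) lies at 11313812 to 11320074 of chromosome 16, plus strand. Its normalised counts were 6, 12 and 6 in untreated marrow, 3, 7 and 5 at day 4, 1, 1 and 3 at day 11, and 2, 1 and 4 at day 18. The samples of days 11 and 18 all lay below the untreated ones, while day 4 overlapped with them. The gene was below the filter on low values, which asked for 10 or more normalised counts in 3 or more of the samples, and it was therefore not tested with the other members. With no filter, its log2 change was -1.77 ± 0.50 at day 11 (limma, adjusted p = 0.0741) and -1.47 ± 0.50 at day 18 (adjusted p = 0.117), and neither passed. At this level 1 normalised count is about 1 read, so differences between days are poorly resolved.

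**Figure D1:**
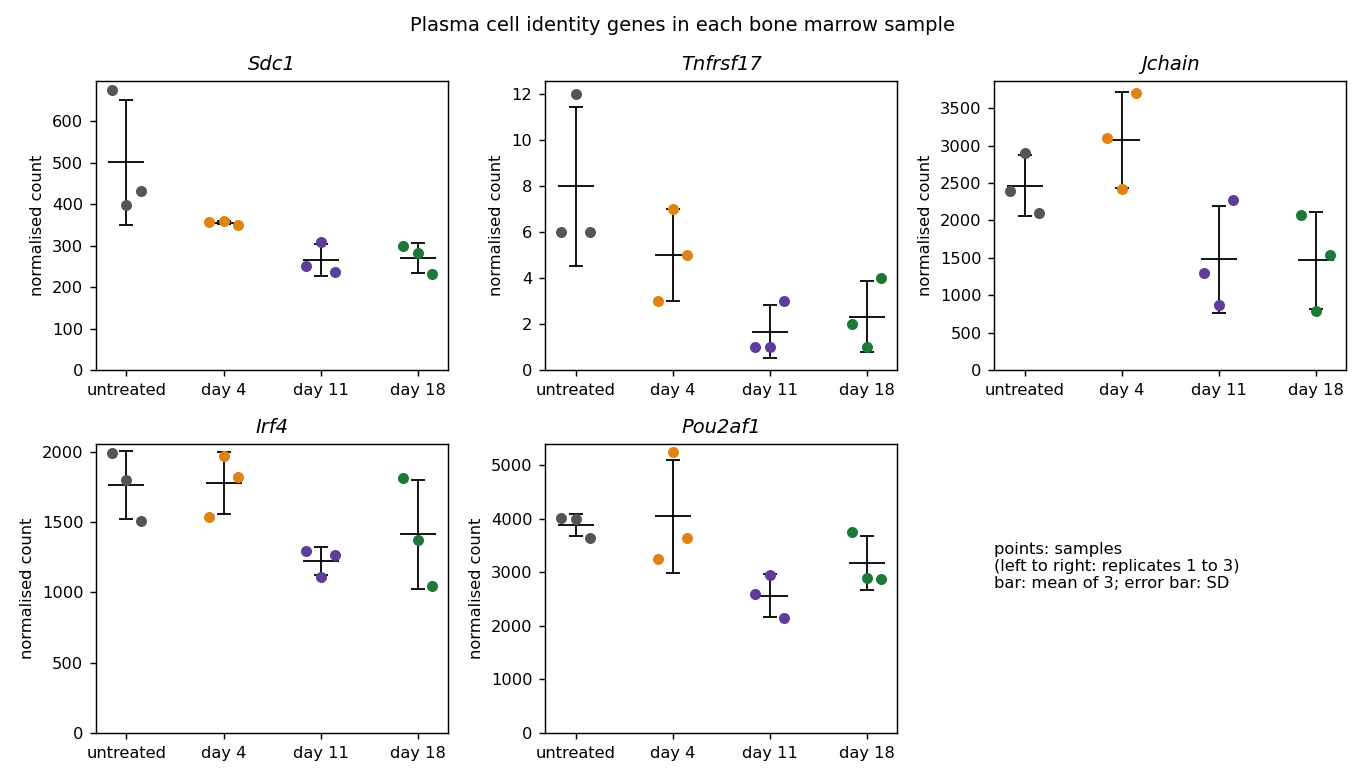
Normalised counts (vertical axes, linear from 0) of the 5 members in each of the 12 samples, by group, with the mean and the SD of 3 samples. Sdc1 was at 398 to 675 in untreated marrow and at 231 to 310 at days 11 and 18, whereas Irf4 and Pou2af1 at day 18 overlapped with untreated marrow.

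Jchain (ENSMUSG00000067149.6) lies at 88519809 to 88527891 of chromosome 5, minus strand, and makes the peptide that polymeric antibodies need. Its normalised counts were 2396, 2907 and 2094 in untreated marrow and 3107, 2425 and 3699 at day 4. They were 1304, 872 and 2269 at day 11 and 2071, 788 and 1543 at day 18. The day 11 samples ranged widely and the highest of them lay inside the untreated range, while all day 18 samples lay below it. The group means were 2466 ± 411 before treatment, 3077 ± 638 at day 4, 1482 ± 715 at day 11 and 1467 ± 645 at day 18 (SD, n = 3).

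The log2 changes of Jchain from untreated marrow were 0.31 ± 0.34 at day 4, -0.83 ± 0.34 at day 11 and -0.84 ± 0.34 at day 18. None passed, with adjusted p = 0.657, 0.184 and 0.145 by limma. Day 4 was highest and the samples of days 11 and 18 all lay below those of day 4. The log2 change from day 4 was -1.14 ± 0.34 at day 11 (adjusted p = 0.132) and -1.16 ± 0.34 at day 18 (adjusted p = 0.0653). The 95% interval of the second was -1.88 to -0.43. Without day 11 replicate 3, the sample with 2269, Jchain was lower at day 11 than at day 4 by a log2 change of -1.51 ± 0.32 (limma, adjusted p = 0.0459).

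Irf4 encodes an interferon regulatory factor that plasma cells and myeloma cells need to survive. Irf4 (ENSMUSG00000021356.10) lies at 30749226 to 30766976 of chromosome 13, plus strand. Its normalised counts were 1992, 1799 and 1509 in untreated marrow, 1538, 1969 and 1825 at day 4, 1296, 1113 and 1268 at day 11, and 1817, 1376 and 1046 at day 18. The day 11 samples lay below all untreated and all day 4 samples, and the day 18 samples ran from within the untreated range down to the lowest value of all 12. Means were 1767 ± 243, 1777 ± 219, 1226 ± 98.6 and 1413 ± 387 in the order of the days.

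Irf4 did not pass against untreated marrow at any day. Its log2 change was 0.01 ± 0.16 at day 4 (limma, adjusted p = 0.98), -0.52 ± 0.16 at day 11 (adjusted p = 0.0869) and -0.35 ± 0.16 at day 18 (adjusted p = 0.218). With a depth covariate these were 0.53 ± 0.18, -0.29 ± 0.13 and -0.17 ± 0.12 (adjusted p = 0.276, 0.294 and 0.481). The estimated depths of day 4, at 16 to 17.8 M, did not overlap with those of untreated marrow, at 21.6 to 25.2 M. Depth and group therefore cannot be fully told apart at day 4. The day 11 difference passed in 4 of 22 alternatives, among them the fit of only the groups compared (adjusted p = 0.0133) and those without day 18 replicate 1 (adjusted p = 0.0318) or replicate 3 (adjusted p = 0.0227). Without day 18 replicate 1, the sample with 1817, the day 18 change was -0.55 ± 0.14 (adjusted p = 0.0323).

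Pou2af1 (ENSMUSG00000032053.8) lies at 51213708 to 51240080 of chromosome 9, plus strand. The only gene annotated within it, Gm47828, lies in an intron on the same strand and had 5 to 21 normalised counts. Pou2af1 itself had 4014, 3993 and 3640 in untreated marrow, 3252, 5243 and 3643 at day 4, 2592, 2953 and 2144 at day 11, and 3758, 2892 and 2869 at day 18. Day 11 lay below every untreated and every day 4 sample, day 4 replicate 2 stood above all other samples, and day 18 overlapped with untreated marrow through its first replicate. Means were 3882 ± 210, 4046 ± 1055, 2563 ± 405 and 3173 ± 507 in the order of the days.

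Pou2af1 fell at day 11, with a log2 change of -0.61 ± 0.16 (limma, adjusted p = 0.0424), a fitted ratio of 0.655. The changes of 0.03 ± 0.16 at day 4 (adjusted p = 0.943) and -0.30 ± 0.16 at day 18 (adjusted p = 0.286) did not pass, and day 18 did not differ from day 11 past the threshold (log2 change 0.31, 95% interval -0.04 to 0.65). The day 11 call was lost in 9 of 22 alternatives, with log2 changes over all 22 from -0.72 to -0.49. Its adjusted p was 0.118, 0.115 and 0.0883 without untreated replicate 1, 2 or 3, 0.0568 without day 4 replicate 3, 0.107 and 0.172 without day 11 replicate 1 or 3, 0.051 without day 18 replicate 2, 0.118 with no intensity trend, and 0.159 with a depth covariate.

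**Figure D2:**
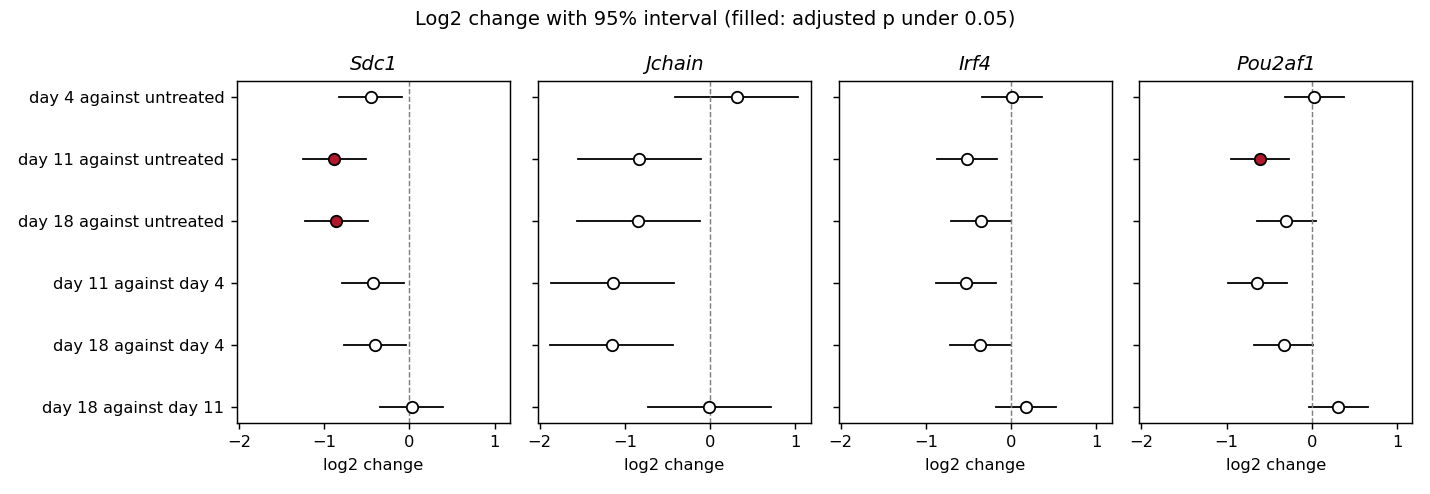
Log2 change of normalised count (horizontal axes) of the 4 tested members in the 6 comparisons of groups, with 95% intervals from limma; filled points have an adjusted p under 0.05. Sdc1 was called at days 11 and 18 against untreated marrow, Pou2af1 at day 11, and no member in the comparisons between treated days.

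Counted over the members, 0 of 4 tested genes were called at day 4 by limma, and 4.64% of all 14883 genes tested were. At that day 1 member, Sdc1, had an unadjusted p under 0.05, as 20% of all genes did, and lay lower without overlap, as 12.1% did. At day 11, 2 of 4 were called and both were lower, against 5.32% of all genes called in either direction and 2.12% called lower. At that day 4 had an unadjusted p under 0.05 (19.7% of all genes) and 3 lay lower without overlap (12.3% of all genes). At day 18, 1 of 4 was called, lower, where 9.2% of all genes were called and 3.91% were called lower. There 2 members had an unadjusted p under 0.05 (23.2% of all genes) and 2, Sdc1 and Jchain, lay lower without overlap (12.6% of all genes). The median log2 change of the 4 members was 0.02 at day 4, -0.72 at day 11 and -0.60 at day 18, beside medians of 0.006, 0.002 and 0 over all genes. A test over all 4 time points called Sdc1 (limma F-test, adjusted p = 0.0105) and Pou2af1 (adjusted p = 0.0475), but not Jchain (adjusted p = 0.0665) or Irf4 (adjusted p = 0.0933), and it called 9.47% of all genes. In this test the call of Pou2af1 was lost in 7 of 12 fits that left out a sample and in 4 of 9 other settings. That of Sdc1 was kept in all of them. Irf4 passed in 2 of the 12 and 2 of the 9, and Jchain in 2 and 1. The comparisons with untreated marrow share its 3 samples.

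Between treated days, all 4 tested members were lower at day 11 than at day 4 without overlap of the samples, which held for 8.16% of all genes. By limma 0 of the 4 were called, although 4 had an unadjusted p under 0.05, where 1.68% of all genes were called and 11.8% had such a p. Day 18 against day 4 gave 0 calls by limma and 3 members with an unadjusted p under 0.05, where 5.48% of all genes were called and 18% had such a p. In that comparison 2 members, Sdc1 and Jchain, lay lower without overlap, as 9.79% of all genes did. Day 18 against day 11 gave 0 calls by limma and 0 members with an unadjusted p under 0.05, where 0.00672% of all genes, which is 1 gene, were called and 6.99% had such a p. Calls between day 11 and day 4 depended on the setting: Irf4 had a log2 change of -0.53 ± 0.16 (limma, adjusted p = 0.155), and of -0.82 ± 0.14 (adjusted p = 0.0132) with a depth covariate. That covariate is partly tied to the groups, with estimated depths of 16 to 17.8 M at day 4 and 16.8 to 24.3 M at day 11. In total marrow, fewer cells that express a gene and less RNA of it per cell cannot be told apart, and neither can myeloma cells and the plasma cells of the host.

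Per kilobase of annotated exon, the order of levels in untreated marrow was Pou2af1 at 1523 ± 82.4 normalised counts per kb, Jchain at 980 ± 163, Irf4 at 360 ± 49.6, Sdc1 at 132 ± 39.7 and Tnfrsf17 at 9.82 ± 4.25 (SD, n = 3). Pou2af1 and Irf4, which are also active in other B lineage cells, stood above the surface markers Sdc1 and Tnfrsf17. The same order of means held at every day, but the samples of Pou2af1 and Jchain overlapped at days 4 and 11, and those of Jchain and Irf4 at day 18. Other plasma cell markers had unlike normalised counts, which were not divided by exon length and so have no place in the order above. The endoplasmic reticulum genes Derl3 and Fkbp11 had 24 to 63 and 46 to 80 normalised counts over all samples. Slamf7, a surface receptor of plasma cells that natural killer cells and other leukocytes also carry, had 592 to 890. None of these 3 passed against untreated marrow at any day, with Derl3 nearest at day 11 (log2 change -0.84 ± 0.23, limma, adjusted p = 0.0543).

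Likeness of profiles was measured as the root mean square difference of log2 values over the 12 samples, each gene centred on its own mean. It is not scaled, so it also grows with the spread of each gene. The SD of these profiles was 0.32 for Irf4, 0.34 for Pou2af1, 0.43 for Sdc1 and 0.70 for Jchain. The closest pair was Irf4 and Pou2af1, the members of least spread, at 0.20, and the farthest Sdc1 and Jchain at 0.62. As a scale for these distances, 54 genes lay nearer to Irf4 than Pou2af1 did, 121 nearer to Sdc1 than Irf4, 227 nearer to Sdc1 than Pou2af1, 122 nearer to Jchain than Irf4, 739 nearer to Jchain than Pou2af1, and 10056 nearer to Sdc1 than Jchain. Of 11287 other genes compared, the one nearest to Jchain was Igkc, the kappa light chain constant region, at 0.23, followed by the calcium channel gene Cacna1h, Rhbdf1, Abat and Spocd1 at 0.34 to 0.38. The nearest to Pou2af1 were Emid1, Rapgefl1, Ehd2, the B cell surface gene Cd72 and Bcl7a, at 0.11 to 0.13. The nearest to Irf4 were Serinc5, Sorcs2, Cpm, Cerk and the DNA polymerase gene Polm, at 0.11 to 0.15. Among the nearest to Sdc1 were Cd46, Chrm3, Cped1 and Rufy4, at 0.20 to 0.21.

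Most immunoglobulin constant region genes, the main products of plasma cells, were lower at the later days. Of 11 tested, 1 fell at day 4, 6 at day 11 and 5 at day 18, with 0 higher at any day, and the median log2 change was -0.14, -1.12 and -1.02. At both later days 10 of the 11 had a log2 change below 0, and Ighg3 did not. Ighg3, named after its values were seen, had 39, 83 and 131 normalised counts in untreated marrow and 1475, 68 and 347 at day 11. Its log2 change of 2.11 ± 0.97 at day 11 did not pass (limma, adjusted p = 0.25). Igkc had 8226, 7367 and 6204 normalised counts in untreated marrow, 7880, 5921 and 7958 at day 4, 3118, 2715 and 4591 at day 11, and 4347, 2366 and 4346 at day 18. Both later groups lay wholly below both earlier ones, and Igkc fell by a log2 change of -1.09 ± 0.23 at day 11 (limma, adjusted p = 0.0128) and -1.02 ± 0.23 at day 18 (adjusted p = 0.0123). The lambda gene Iglc2 had log2 changes of -1.48 ± 0.29 and -1.31 ± 0.29 at those days (adjusted p = 0.00782 and 0.0108), and Iglc3 fell too. Ighd, the heavy chain of naive mature B cells, fell at all 3 days, from 2800 ± 904 to 1224 ± 222, 628 ± 53.5 and 821 ± 227. Ighm and Igha, whose products carry the J chain and which were picked after their values were seen, did not pass against untreated marrow at any day: Ighm had 25155 ± 2486 before treatment and 20096 ± 4499 at day 11 (adjusted p = 0.299), and Igha 3984 ± 1152 and 1843 ± 584 (adjusted p = 0.0563). Igha had 5993 ± 1377 at day 4, and from there it fell by a log2 change of -1.72 ± 0.31 at day 11 (limma, adjusted p = 0.0108) and -1.58 ± 0.31 at day 18 (adjusted p = 0.00858). The count at day 11 was 3 without untreated replicate 1, and that at day 18 was 2 to 3 without day 18 replicate 2 or untreated replicate 2 or 3. The day 4 call of Ighd was lost without day 4 replicate 1 or untreated replicate 2 or 3.

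Companion genes of plasma cells moved in both directions. Of 15 tested, 0 rose and 2 fell at day 4, 3 rose and 2 fell at day 11, and 4 rose and 2 fell at day 18, with a median log2 change of 0.01, -0.10 and -0.15. Prdm1, which encodes the plasma cell factor Blimp-1 and is also active in effector T cells, had 95, 70 and 94 normalised counts in untreated marrow, 103, 73 and 139 at day 4, 183, 180 and 268 at day 11, and 317, 311 and 250 at day 18. Its later samples all lay above the untreated ones, and it rose by a log2 change of 1.26 ± 0.22 at day 11 (limma, adjusted p = 0.00428) and 1.76 ± 0.22 at day 18 (adjusted p = 0.000207). The other genes that rose were Cd27 and Cd28, which T cells carry, at both later days, and Creld2, an endoplasmic reticulum stress gene, at day 18, when it reached 908 ± 71.7 against 544 ± 19.1. Tnfrsf13b, which encodes the BAFF and APRIL receptor TACI of B cells, fell at all 3 days, from 1730 ± 117 to 1359 ± 94.5, 1194 ± 122 and 1292 ± 108. The summed T cell markers were higher over the same days, from 3048 to 4945 before treatment to 11033 to 12037 and 11815 to 16466, and their part in these rises was not tested. The other falls, named after their values were seen, were Trp53inp1 at days 4 and 11 and the elongation factor gene Ell2 at day 18. The 2 calls at day 4 became 0 or 1 on omission of any untreated sample, of day 4 replicates 1 and 3 in turn, of the third from day 11, and of the second from day 18.

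**Figure D3:**
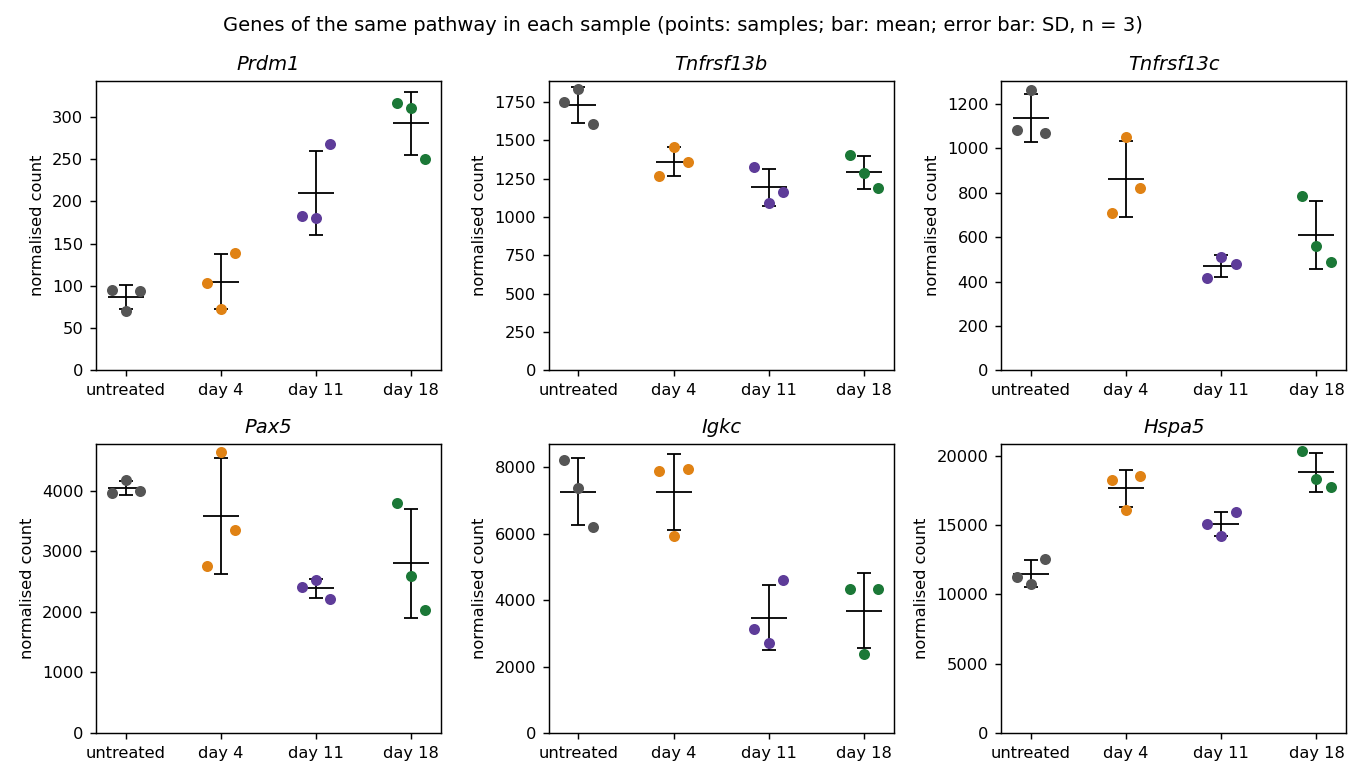
Normalised counts (vertical axes, linear from 0) of 6 genes around the plasma cell programme in each of the 12 samples, with the mean and the SD of 3 samples. Prdm1 rose to 250 to 317 at day 18 from 70 to 95 in untreated marrow, while Tnfrsf13b, Tnfrsf13c and Igkc were lower at days 11 and 18.

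Survival factors of plasma cells and their receptors gave calls in both directions. The ligand genes Tnfsf13, for APRIL, and Tnfsf13b, for BAFF, did not pass at any day: Tnfsf13 had 24 ± 3 normalised counts before treatment and 11 to 44 in treated samples, and Tnfsf13b had 757 ± 71.1 before and 910 ± 37.8 at day 18 (limma, adjusted p = 0.119). Tnfrsf13c, the BAFF receptor gene of mature B cells, fell from 1138 ± 108 to 470 ± 47.8 at day 11 (log2 change -1.27 ± 0.16, limma, adjusted p = 0.000346) and 611 ± 154 at day 18 (adjusted p = 0.00305). Il6, a growth factor of myeloma cells, rose from 19.7 ± 2.31 to 71.3 ± 10 at day 4 and 50.7 ± 4.16 at day 18, and had 34.7 ± 8.33 at day 11 (adjusted p = 0.0516). Il6st, its signal-transducing receptor chain, fell at days 4 and 18, and the growth factor gene Igf1 fell at day 18, from 138 ± 22.5 to 73 ± 6.25. In all, 17 genes of this list were tested, and 1 rose and 1 fell at day 4, 1 and 1 at day 11, and 2 and 3 at day 18, with median log2 changes of -0.03, -0.08 and -0.003. At day 11 the call that rose was lost without untreated replicate 1 or 2 or day 11 replicate 1 or 3. Among 8 myeloma oncogenes tested, 1 passed against untreated marrow, Maf at day 18, at 343 ± 23.9 against 237 ± 38 (log2 change 0.54 ± 0.13, limma, adjusted p = 0.015), a call lost without untreated replicate 1 or day 18 replicate 1 or 2. Leaving out the third day 18 sample gave 3 higher at day 18 and 1 lower at day 4. At days 4 and 11, 0 of those 8 passed by limma, and the median log2 change was -0.01, 0.05 and 0.11 over the 3 days.

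Genes of the secretory pathway, many of them targets of the factor that Xbp1 encodes, included several that were higher than in untreated marrow. Of 26 tested, 4 rose at day 4, 7 at day 11 and 13 at day 18, and 1 fell at each day, the stress kinase gene Eif2ak3, with a median log2 change of 0.19, 0.20 and 0.28. Between day 18 and day 11, 0 of the 26 were called by limma. Hspa5, the chaperone BiP, had 11510 ± 953 normalised counts before treatment, 17649 ± 1345 at day 4, 15088 ± 889 at day 11 and 18819 ± 1392 at day 18. It rose at each day, by a log2 change of 0.62 ± 0.09, 0.39 ± 0.09 and 0.71 ± 0.09 (limma, adjusted p = 0.00135, 0.0197 and 0.000184). Manf and Pdia3 rose at all 3 days too, and Dnajb9 was highest at day 4, at 1445 ± 81.3 against 636 ± 58.5. These genes are active in every secreting cell. In either direction, the other settings called 1 (depth covariate) to 11 (sample weights) at day 4 and 2 (depth covariate) to 11 at day 11. Among samples left out, at day 11, 1 rose without day 11 replicate 1, 2 without replicate 3, 4 without replicate 2, and 3, 3 and 5 without untreated replicate 1, 2 and 3. In each of these fits at day 11, 0 fell. At day 4, 2 rose without any 1 of its 3 replicates, untreated replicate 1 or 3, or day 11 replicate 1. There 0 fell without untreated replicate 1 or 3 or day 4 replicate 3.

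Regulators of B cell identity, some of which plasma cell differentiation switches off, were also lower. Of 13 tested, 3 fell at day 4, 5 at day 11 and 4 at day 18, with 0 higher and median log2 changes of -0.23, -0.38 and -0.36. Pax5, the factor that holds B cell identity, had 3970, 4184 and 4002 normalised counts before treatment, 2751, 4639 and 3359 at day 4, 2417, 2531 and 2214 at day 11, and 3792, 2585 and 2035 at day 18. It fell at day 11 (log2 change -0.76 ± 0.19, limma, adjusted p = 0.0357), and so did Bach2, a repressor of Prdm1 (log2 change -0.81 ± 0.19, adjusted p = 0.0235), while neither passed at day 18. Pou2f2, the octamer-binding partner of the Pou2af1 product, fell at all 3 days, from 1556 ± 47.6 to 957 ± 54.2, 1038 ± 167 and 996 ± 186. Bcl6, the germinal centre factor, fell at days 4 and 18, and Id3 at day 18. The count at day 11 was 0 without day 11 replicate 1, 1 without its replicate 3, and 2, 1 and 1 without untreated replicate 1, 2 and 3, and that at day 18 was 2 without day 18 replicate 2 or untreated replicate 2 and 7 without day 4 replicate 2. Under the other settings the day 11 count ran from 1 (no intensity trend) to 7.

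Marker lists of other cells gave calls in unlike numbers. As a scale for these and the gene lists above, limma called 4.64% of all genes tested at day 4, 5.32% at day 11 and 9.2% at day 18. These are 691, 792 and 1369 genes. When a sample was left out, the number called over all genes also moved, from 269 to 1088 at day 4, 407 to 1132 at day 11 and 800 to 1412 at day 18. Calls of a list that were lost or gained on such an omission are to be read beside these ranges. The 11 tested mature B cell genes all fell at days 11 and 18, and 4 of them at day 4, with a median log2 change of -0.53, -1.13 and -0.81, and their summed level went from 27128 to 34494 normalised counts before treatment to 19694 to 28500, 15047 to 16871 and 16033 to 21521. At days 4, 11 and 18 the sample highest for Pou2af1 was also highest for this sum and for Pax5, with 28500, 16871 and 21521, whereas untreated replicate 1 was highest for Pou2af1 in its group and lowest for both, with 27128. At day 18 the count was 6 without day 18 replicate 2 or untreated replicate 2 or 3, while at day 4 it was 1 on omission of untreated samples 2 and 3 in turn, and 2 on omission of day 4 samples 1 and 3 in turn and of the first from day 11. Of 7 tested genes of B cell precursors, which can carry syndecan-1 in mice, 1 fell, Il7r at day 11, and their sum was 10704 to 11268 before treatment, 9965 to 13659 at day 4, 9062 to 10502 at day 11 and 8611 to 12429 at day 18. Every day 11 sum of these genes lay below every untreated one, and the call of Il7r was lost on omission of each untreated sample and of day 11 samples 1 and 3 in turn. T cell genes rose, 2 of 12 at day 4 and 11 of 12 at both later days, and their sum at day 4 was 4731 to 7599, lowest in the replicate 2 that was highest for Pou2af1. Without that replicate 8 of them rose at day 4, and without untreated replicate 1 or day 4 replicate 3 only 1 did. It was 4 on omission of the second untreated sample and 6 on that of the third from day 18, and the other settings gave 0 (depth covariate) to 10 (sample weights). Of 7 plasmacytoid dendritic cell genes 1 fell at day 4 and 1 rose at day 18, and their sum stayed within 8297 to 11923 in all samples. The day 4 call was lost on omission of any untreated or day 4 sample or the first from day 11. The day 18 call was lost on omission of untreated samples 2 and 3 in turn and of the first from day 18, and 2 rose without day 4 replicate 2. At day 11, 1 fell on omission of the second sample from day 4 and of the third from day 18. Macrophage genes had 0 of 9 called at day 4, 1 lower at day 11 and 3 lower at day 18, with sums of 9586 to 11048 before treatment and 6833 to 9628 at day 18. The day 11 call was lost on omission of any untreated sample and of day 11 samples 1 and 3 in turn, and 2 fell without the second. Eosinophil genes had 1 of 10 higher at day 4, 2 higher and 2 lower at day 11, and 6 higher and 2 lower at day 18. The day 4 call was lost on omission of untreated samples 1 and 2 and of each day 4 sample in turn, and 2 rose without the third from day 11. At day 11, 0 rose and 1 fell on omission of untreated samples 1 and 2 and of the first from day 11, and 0 rose and 2 fell without its second. Among 9 neutrophil genes Mpo passed, higher at each day, but 0 passed at day 4 in 7 and at day 11 in 8 of the 12 fits that left out a sample, including those without untreated samples 1 and 3. No marker of these lists in the table was at 0 in all samples of a group. The part of these cells in the values of the members was not tested.

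**Figure D4:**
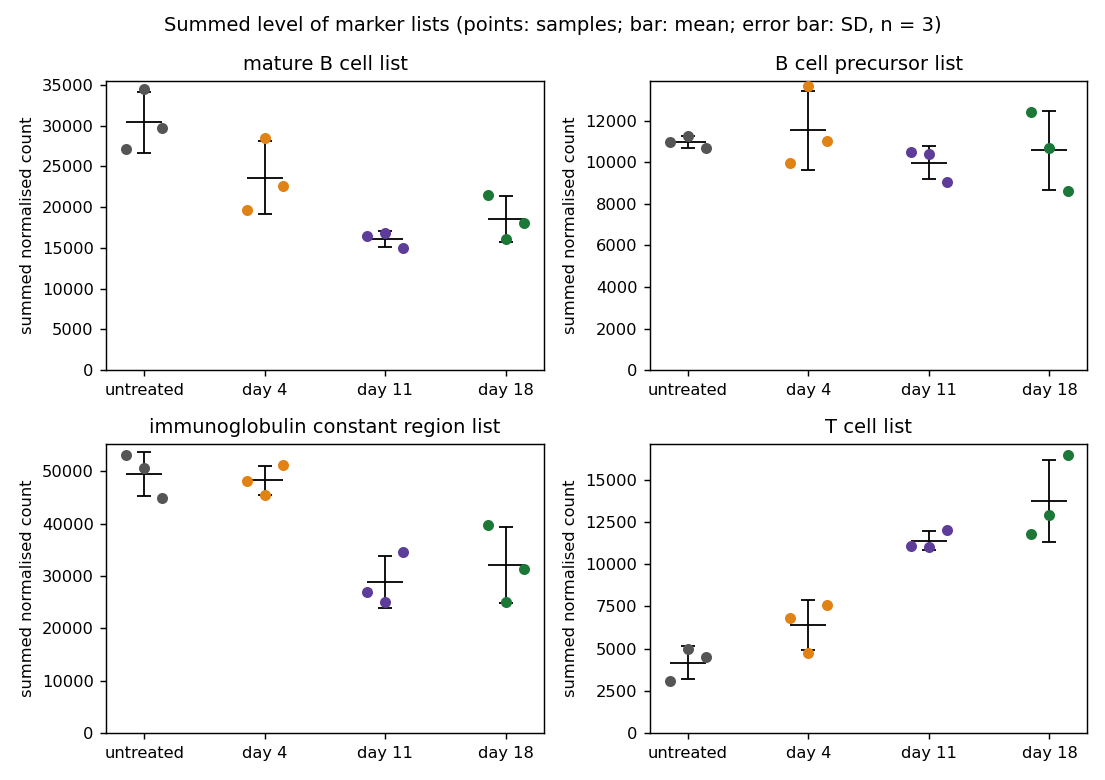
Summed normalised counts (vertical axes, linear from 0) of 4 gene lists in each of the 12 samples, with the mean and the SD of 3 samples. The mature B cell and immunoglobulin sums were lower at days 11 and 18, the T cell sum was higher, and the precursor sum at days 4 and 18 overlapped with untreated marrow, while at day 11 it lay below it.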

How the data were processed

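RNA of total bone marrow was measured in 12 samples, 3 in each of 4 groups. Per the labels, stranded mRNA libraries were sequenced as read pairs. Per the submitters' processing notes, STAR 2.3.0, Subread featureCounts 1.4.6 and limma were used on GRCm38, with no roles given. The strand setting of counting is not given in the sources used here. Per the file headers, the deposited values are normalised counts, a score written as whole numbers, and their scaling is not stated. Depth was estimated from the spacing of whole numbers up to 150 in each sample, assuming 1 scaling factor per sample, and limits the precision of low genes.

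The filter kept genes that reached 10 normalised counts in 3 or more samples (14883 of 23134, with 8251 removed). Of the 7 genes listed, 5 were in the table and 4 passed. One limma 3.58.1 model (R 4.3.3) with a mean per group and an intensity trend was fitted to log2(normalised count + 1) of all 12 samples, so a fold change of a low gene is understated. Tests were two-sided with Benjamini-Hochberg adjustment over all genes tested and a threshold of 0.05, and the model was tested on simulated data. Samples were grouped by treatment day. Replicate numbers follow sample order and pair nothing. Samples were compared for copies: at most 0.928% of 10456 genes had equal values in a pair.

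All 23134 gene identifiers matched GENCODE M21, which gave positions and exon lengths. Of 182 distinct genes in 13 context lists, 156 were in the table. Named genes were all members, up to 4 called genes of each of 6 pathway lists with the smallest adjusted p, the factors and receptors fixed by name, and the 5 nearest profiles of each member; some of these named genes are not reported here. The members and lists were chosen with earlier results of these data known. Alternatives changed the pseudocount, filter, scaling, spread model, samples and a depth covariate.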

Additional observations from a re-analysis of the deposited data

How the results depend on the processing

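No paired analysis was possible because replicate numbers follow only the order of the samples. Across 22 alternatives, 12 of which left out 1 sample each, the falls of Sdc1 at days 11 and 18 kept their direction and stayed past the threshold, and Jchain did not pass against untreated marrow in any. The number of members called at day 11 was 2, and it was 1 with no intensity trend, 1 with the estimated depth as a covariate, 3 with sample weights, 3 with only the groups compared, and 1 to 3 when a sample was left out. At day 18 it was 1, and 1 to 2 when a sample was left out. For day 11 against day 4 it was 0, and 3 with sample weights, 1 with the depth covariate, 1 with only the groups compared, and 0 to 1 when a sample was left out. For day 18 against day 4 it was 0, and 1 with sample weights or the depth covariate, and 0 to 2 when a sample was left out. For any time point it was 2, and 1 with a mean of at least 40, with quantile normalisation or with no trend, 4 with sample weights, and 1 to 4 when a sample was left out. Signs turned only in changes near 0 that did not pass: Irf4 at day 4 was -0.0016 on the log2 scale with quantile normalisation, 0.53 with the depth covariate and -0.10 to 0.11 when a sample was left out, and Pou2af1 at day 4 was -0.0078 with sample weights and -0.17 to 0.17. For day 18 against day 11, leaving out a sample gave -0.052 to 0.14 for Sdc1, -0.028 to 0.37 for Irf4 and -0.34 to 0.38 for Jchain. Over all genes, 691 were called at day 4, 792 at day 11 and 1369 at day 18. Under the 10 alternatives that left out no sample, the day 4 number ran from 69 with the depth covariate to 1817 with sample weights. The day 11 number ran from 442 to 1914, and that of day 18 from 912 with only the groups compared to 2056. When a sample was left out, these numbers ran from 269 to 1088, from 407 to 1132 and from 800 to 1412. Under the 10 alternatives other than leaving out a sample, calls in either direction ran from 3 to 8 at day 11 and 2 to 6 at day 18 for immunoglobulin genes, from 0 to 5 at day 4 and 6 to 11 at day 18 for mature B cell genes, from 0 to 4 at day 4 for companion genes, and from 0 to 4 at day 4 and 1 to 4 at day 11 for survival genes. No cause of these differences was tested. The low estimated depth of the day 4 libraries limits low genes, among them Tnfrsf17.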
